A study of Mus musculus with 6 samples.

Results

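The genes that let macrophages find, bridge and engulf dying cells were examined in macrophages of Cd28 knockout (Cd28 KO) and wild-type mice. The 10 genes were taken by name: the receptors Axl, Mertk, Tyro3, Timd4, Stab1, Trem2 and Cd300lf and the bridging molecules Gas6, Pros1 and Mfge8. All 10 were found among the 14574 genes listed in any library, and the rule used no measured value. The cells were bone marrow-derived macrophages, grown for 7 days in 10% serum with human M-CSF at 25 ng/ml, the growth factor that turns marrow precursors into macrophages. Donors were mice 6 to 10 weeks old, either Cd28 KO or C57BL/6J (WT), and the cells of both groups received no other treatment. Each group had 3 libraries, named here by genotype and replicate number. The labels do not say whether a number stands for a separate animal, so the spread behind each p-value is that between samples and may be technical. The labels do not say which exons of Cd28 were targeted.

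Efferocytosis is the clearance of apoptotic cells by phagocytes. A dying cell exposes the lipid phosphatidylserine on its outer membrane. Phagocytes bind it directly, through receptors such as Tim-4 (Timd4), Stabilin-1 (Stab1) and the CD300 proteins, or through secreted bridges. Gas6 and protein S (Pros1) link phosphatidylserine to the TAM receptor tyrosine kinases Tyro3, Axl and Mertk, and Mfge8 links it to the integrins alpha-v beta-3 and alpha-v beta-5. Trem2 binds lipids and lipoproteins and signals through the adaptor Tyrobp. Mertk is known for clearance by resting macrophages and Axl for clearance under inflammatory conditions. Timd4 is known from resident peritoneal macrophages.

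Promoter sequence is shown for 3 genes: Mfge8, whose log2 difference between the genotypes was the largest of the tested members, Trem2, the most abundant member, and Timd4, which was close to 0 FPKM. Each window runs from 250 bases before to 50 bases after the start used in the promoter set on GRCm38.p6, 5′ to 3′ on the gene's strand. For Timd4, and for Axl, Tyro3, Stab1 and Cd300lf among the promoters counted below, that start is not the annotated start of the gene. Capitals mark the ETS core GAGGAA (bound by PU.1, the macrophage factor, among others), the GC box GGGCGG and the nuclear receptor half-site AGGTCA, each on either strand. Nothing measured here shows binding at these letters.
Mfge8, chr7:79149011-79149310, minus strand: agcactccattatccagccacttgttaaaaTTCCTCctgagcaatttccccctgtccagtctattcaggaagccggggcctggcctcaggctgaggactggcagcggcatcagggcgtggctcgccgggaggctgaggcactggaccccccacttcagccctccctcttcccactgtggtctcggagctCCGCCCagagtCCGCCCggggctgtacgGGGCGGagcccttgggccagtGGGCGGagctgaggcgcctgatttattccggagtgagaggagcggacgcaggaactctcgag
Trem2, chr17:48346151-48346450, plus strand: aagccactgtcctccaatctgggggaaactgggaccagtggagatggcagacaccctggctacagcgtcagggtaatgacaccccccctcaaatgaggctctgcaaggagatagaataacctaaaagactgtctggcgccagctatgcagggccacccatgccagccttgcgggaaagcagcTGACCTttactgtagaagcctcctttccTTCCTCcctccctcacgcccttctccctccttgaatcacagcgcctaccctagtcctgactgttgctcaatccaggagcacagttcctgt
Timd4, chr11:46810549-46810848, plus strand: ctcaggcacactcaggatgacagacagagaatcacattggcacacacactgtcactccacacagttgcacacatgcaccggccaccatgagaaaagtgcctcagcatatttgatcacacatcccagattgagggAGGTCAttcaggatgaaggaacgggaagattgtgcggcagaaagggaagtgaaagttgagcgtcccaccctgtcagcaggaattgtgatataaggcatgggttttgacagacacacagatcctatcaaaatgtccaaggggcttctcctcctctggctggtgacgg
The ETS core was present in 5 of the 10 promoters of these genes and in 28.3% of all 32851 promoters. The GC box was present in 6 of 10 and in 35.7% of all, and the half-site in 2 of 10 and 16.3% of all. The Mfge8 window held 4 GC boxes and 1 ETS core, the Trem2 window 1 ETS core and 1 half-site, and the Timd4 window 1 half-site. The base composition also differed, with 64.3% G and C for Mfge8, 56% for Trem2 and 50.7% for Timd4.

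Values were FPKM, a measure of fragments that takes account of transcript length and library size, so levels of different genes can be compared. Each library listed 12768 to 13327 genes, and the files carry no read numbers. Replicate 3 of each genotype differed from the rest: on the first principal component (73.8% of variance) these 2 libraries scored 34.8 and 36.1 and the other 4 between -18.2 and -17.4. Only these 2 libraries listed the Y-linked genes Ddx3y, Eif2s3y, Kdm5d and Uty, at 54.5 and 52.1 FPKM in sum, and the other 4 stood at 0. By these genes replicate 3 held male cells and the other 4 libraries showed none, although the labels give no sex. A contrast of replicate 3 with replicates 1 and 2 therefore cannot be told apart from donor sex. Cd28 itself stood at 25.6 ± 1.38 FPKM in the knockout and 39.8 ± 10.6 in WT (mean ± SD, n = 3 each). The targeted gene was thus lower in every knockout library but not absent, and a two-sided exact permutation test gave 0.1, the lowest p that 3 against 3 can reach. The 7 macrophage markers, among them Adgre1, Csf1r and Cd68, summed to 14646 to 16772 FPKM in the knockout and 14010 to 14681 in WT. Most of that sum was Lyz2, at 9652 to 12716 FPKM over the 6 libraries.

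The efferocytosis genes spanned a wide range, from abundant transcripts to values near the lowest listed. Trem2 led with 795 ± 85.7 FPKM over the 6 libraries (SD), rank 110 of all 14574 genes. Gas6 followed at 337 ± 48.0 FPKM, rank 237. The next 3, Mfge8 at 115 ± 41.9, Axl at 97.2 ± 5.61 and Stab1 at 84.3 ± 20.3 FPKM, had overlapping ranges: Mfge8 exceeded Axl in 3 of 6 libraries and Axl exceeded Stab1 in 4 of 6. Stab1 was 6.14 times the next gene, and their ranges did not overlap. Cd300lf at 13.7 ± 3.42 and Pros1 at 11.6 ± 3.43 FPKM traded places, each higher in 3 libraries. Mertk stood at 6.16 ± 1.14 FPKM, below Pros1 in 6 of 6 libraries although the ranges overlapped.

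Tyro3 and Timd4 were at the lower limit of the files, where 0.01 FPKM was the lowest value listed. Tyro3 was listed in 3 libraries, at 0.05 and 0.03 FPKM in Cd28 KO replicates 1 and 2 and 0.13 in WT replicate 3. Timd4 was listed in 2, at 0.05 FPKM in Cd28 KO replicate 1 and in WT replicate 3. A gene missing from a file was counted as 0, and the depth that a 0 stands for is unknown. Both failed the minimum mean of 1 FPKM, which left 8 of the 10 genes tested. Markers of stromal cells and fibroblasts, which can also produce Gas6, Pros1 and Mfge8, summed to 0.29 to 0.65 FPKM in the knockout and 0.18 to 0.38 in WT over 8 markers, and Lum was at 0 in all libraries.

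**Figure D1:**
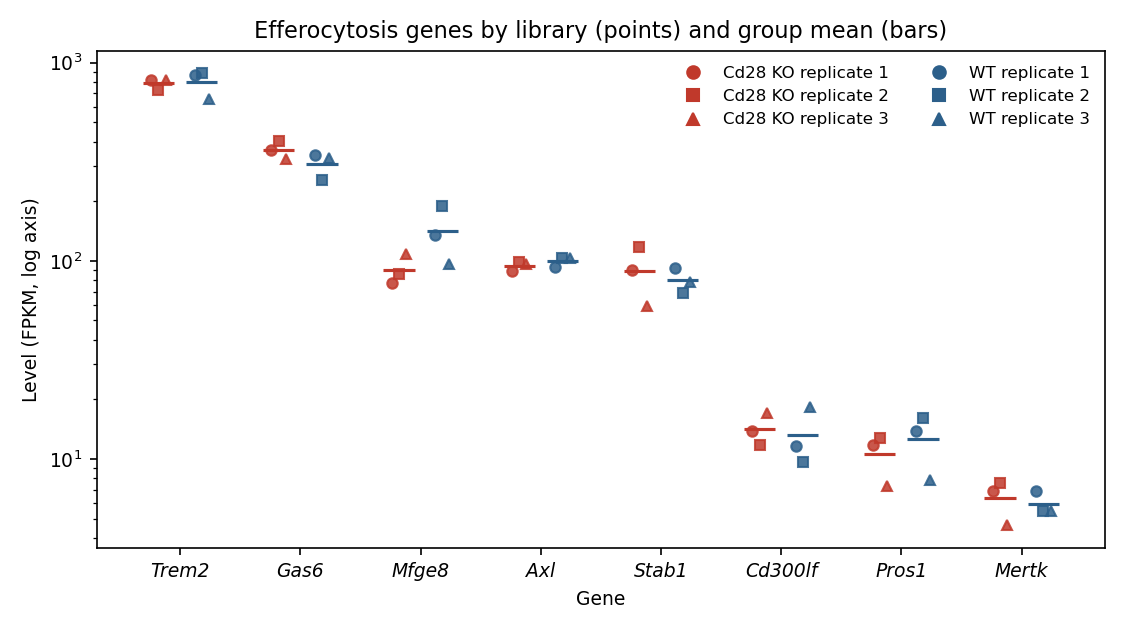
Level of the 8 tested efferocytosis genes in FPKM (vertical log axis) in each library, with Cd28 KO in red and WT in blue, replicate numbers by symbol and group means as bars. Trem2 and Gas6 lie above all others in every library, and the Mfge8 points of replicates 1 and 2 separate by genotype while those of replicate 3 do not. Tyro3 and Timd4, at 0 to 0.13 FPKM, are not drawn.

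None of the 8 tested genes differed between Cd28 KO and WT past the threshold. The test was limma on log2(FPKM + 1) over 10172 genes, with a call at a Benjamini-Hochberg adjusted p below 0.05. It called 0 of 8 here and 2 genes overall (0.0197%). At an unadjusted p below 0.05 it listed 1 of the 8, Mfge8, against 2.49% of all tested genes. With a block for replicate number, limma again called 0 of 8, against 0.177% of all. For no member did the 3 Cd28 KO values lie wholly above or below the 3 WT values, which held for 6.71% of tested genes. Of the 8 log2 differences 4 were positive and 4 negative, where 49.1% of all tested genes were positive, and their median was 0.03 beside -0.003 over all tested genes. The 10 genes lie on chromosomes 2, 7, 8, 11, 14, 16 and 17, and 0 lie on chromosome 1, which carries Cd28. In bulk samples, fewer cells of a type and less RNA per cell cannot be told apart.

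Mfge8, the bridge between phosphatidylserine and alpha-v integrins, had the largest log2 difference of the 8 genes (Entrez 17304, chromosome 7, 79133768 to 79149060, GRCm38). Knockout replicates 1, 2 and 3 stood at 77.3, 85.4 and 108 FPKM, and WT replicates 1, 2 and 3 at 136, 190.2 and 96.3 FPKM. In replicates 1 and 2 both knockout values lay below both WT values, whereas in replicate 3 the knockout was the higher, so the groups overlapped. Group means were 90.1 ± 15.8 FPKM in the knockout and 141 ± 47.1 in WT (mean ± SD, n = 3 each), or 64.1% of WT. The log2 difference was -0.60 ± 0.25 (SE), with a 95% interval of -1.18 to -0.01 and a limma adjusted p of 0.9995. A larger absolute difference was found in 56 of the 10172 genes (0.551%). With the replicate block the standard error was 0.20 and the limma adjusted p 0.50.

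The Mfge8 difference depended on which libraries entered. Within replicate numbers, the ratio of Cd28 KO to WT was 0.57 in replicate 1, 0.45 in replicate 2 and 1.12 in replicate 3. In replicates 1 and 2 alone the log2 difference was -0.97 ± 0.15 (SE), and Mfge8 was called lower at a limma adjusted p of 0.029. That was the 1 of 8 members called in this fit, which called 0.698% of all tested genes and 0.305% as lower, and this alternative was chosen with earlier results of these data known. The test of the difference itself, as an interaction between genotype and replicate 3, gave 1.14 ± 0.25 (SE) on the log2 scale and a limma adjusted p of 0.13. Replicate 3 holds 1 library per genotype, so the error of this test comes from the spread within replicates 1 and 2 alone, and each lone library is assumed to vary like those. Replicate 3 also differed from the rest in its Y-linked genes, and the part of donor sex was not tested. The interaction was called for 0 of the 8 members and for 0.0688% of all tested genes, while 3 of the 8 (Mfge8, Stab1 and Trem2) and 18.9% of all tested genes had an unadjusted limma p below 0.05. Without WT replicate 2, the highest library, the log2 difference over the remaining 5 was -0.35 ± 0.21 (SE), at a limma adjusted p of 0.9997. Markers of mast cells and basophils were also lower in all Cd28 KO libraries, at 1.68 to 2.09 FPKM in sum against 3.04 to 4.10 over 4 markers. That sum was mostly Kit, with Cpa3, Fcer1a and Mcpt8 at 0 to 0.37 FPKM. The 4 monocyte markers were higher, at 31.6 to 38.1 against 24.5 to 28.7 FPKM, and the part of either in the Mfge8 values was not tested.

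**Figure D2:**
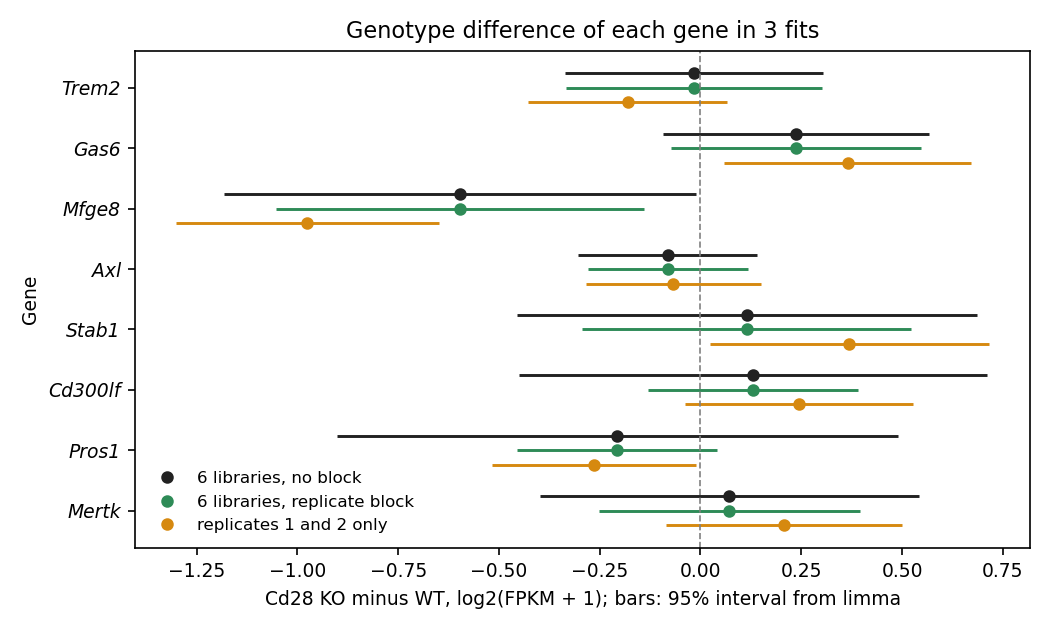
Genotype difference, Cd28 KO minus WT on the log2(FPKM + 1) scale (horizontal axis), of the 8 tested genes with 95% intervals from limma in 3 fits. The Mfge8 interval lies below 0 in each fit, from -1.18 to -0.01 without a block, yet the adjusted p was below 0.05 only in replicates 1 and 2 alone.

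Gas6, the ligand that binds Axl more tightly than the other TAM receptors, was abundant in both genotypes. Its levels were 363, 402 and 326 FPKM in knockout replicates 1, 2 and 3, against 342, 257 and 329.9 FPKM in those of WT. The 2 highest values were knockout replicates 1 and 2 and the lowest was WT replicate 2, while the rest lay between 326 and 342 FPKM. Group means were 364 ± 37.8 FPKM for the knockout and 310 ± 46.1 for WT (mean ± SD, n = 3 each). Its log2 difference was 0.24 ± 0.14 (SE), with a 95% interval of -0.09 to 0.57 and a limma adjusted p of 0.9995. Without WT replicate 2 the difference was 0.11 ± 0.13 (SE), at a limma adjusted p of 0.9997.

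Pros1 encodes protein S, an anticoagulant plasma protein that also activates Mertk and Tyro3. Its Cd28 KO values were 11.7, 12.8 and 7.32 FPKM and its WT values 13.8, 16.1 and 7.85 FPKM. The replicate 3 libraries were the lowest of both genotypes, at 0.60 and 0.53 times the mean of replicates 1 and 2. Within each replicate number the knockout was the lower, with ratios of 0.85, 0.80 and 0.93. The log2 difference was -0.21 ± 0.30 (SE) at a limma adjusted p of 0.9995, and with the block -0.21 ± 0.11 (SE) at a limma adjusted p of 0.72. Gas6 made up 94.1% to 97.8% of the summed FPKM of the 2 TAM ligands.

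Among the TAM receptors, Axl was the steadiest of the 8 genes and Mertk varied more. Axl stood at 89.0, 98.3 and 96.1 FPKM in the knockout and at 93.5, 103 and 104 FPKM in WT. It spanned 1.17-fold from the lowest to the highest library, against 2.46-fold for Mfge8. The knockout was the lower within each replicate number, at ratios of 0.95, 0.96 and 0.93, but the groups overlapped. Knockout replicate 2 at 98.3 FPKM exceeded WT replicate 1 at 93.5 FPKM. Libraries of numbers 1 and 2 were not clearly paired, so the shared direction depends on how they are matched. The log2 difference was -0.08 ± 0.09 (SE) at a limma adjusted p of 0.9995. Its 95% interval of -0.30 to 0.14 corresponds to 0.81 to 1.10 times WT in FPKM + 1.

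Mertk stood at 6.90, 7.60 and 4.63 FPKM in the knockout and at 6.89, 5.46 and 5.47 FPKM in WT. The highest and the lowest library were both Cd28 KO. The log2 difference was 0.07 ± 0.20 (SE) at a limma adjusted p of 0.9995. Its 95% interval was 0.76 to 1.45 times WT in FPKM + 1, and 0.73 to 1.53 with a pseudocount of 0.1. Axl thus held 92.8% to 95.4% of the summed FPKM of Axl, Mertk and Tyro3 in every library. The ratio of Axl to Mertk was 12.9, 12.9 and 20.8 in Cd28 KO and 13.6, 18.8 and 19.0 in WT. TAM ligands summed to 3.91, 3.91 and 3.31 times the TAM receptors in Cd28 KO and to 3.55, 2.52 and 3.09 times in WT, with overlap between the groups.

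Trem2, the lipid receptor that signals through Tyrobp, stood at 818, 726 and 819 FPKM in the knockout and at 862, 884 and 659 FPKM in WT. The 2 highest and the lowest value were all WT, with the knockout libraries between. The log2 difference was -0.02 ± 0.14 (SE) at a limma adjusted p of 0.9995, and 90.9% of tested genes had a larger absolute difference. The 95% interval of this fit was 0.79 to 1.23 times WT in FPKM + 1, and that of replicates 1 and 2 alone was 0.74 to 1.05. Within replicate numbers the ratios were 0.95, 0.82 and 1.24, in the same directions as those of Mfge8. The interaction between genotype and replicate 3 was 0.49 ± 0.19 (SE) for Trem2, with a limma adjusted p of 0.21 and the same limit of 1 replicate 3 library per genotype.

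Stab1, a large scavenger receptor that binds phosphatidylserine and also takes up modified lipoproteins, stood at 90.3, 117 and 59.5 FPKM in the knockout and at 91.5, 68.8 and 78.5 FPKM in WT. The 3 knockout libraries spread more widely than the WT ones, and both extremes were knockouts. The log2 difference was 0.11 ± 0.24 (SE) at a limma adjusted p of 0.9995. The interaction with replicate 3, again resting on 1 such library per genotype, was -0.76 ± 0.27 (SE) at a limma adjusted p of 0.19. Stab1 overlaps Nt5dc2 in the annotation, a gene listed at 53.5 to 69.8 FPKM, and whether reads kept their strand is not stated in the labels.

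Cd300lf, a phosphatidylserine-binding receptor with inhibitory motifs in its tail that lies in the Cd300 gene cluster of chromosome 11, stood at 13.8, 11.7 and 17.1 FPKM in the knockout and at 11.6, 9.65 and 18.4 FPKM in WT. The replicate 3 libraries were the highest of both genotypes, at 1.34 and 1.73 times the mean of replicates 1 and 2. Its log2 difference was 0.13 ± 0.25 (SE) at a limma adjusted p of 0.9995. It overlaps Rab37, which did not exceed 0.94 FPKM, and its values can share reads with similar Cd300 genes.

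**Figure D3:**
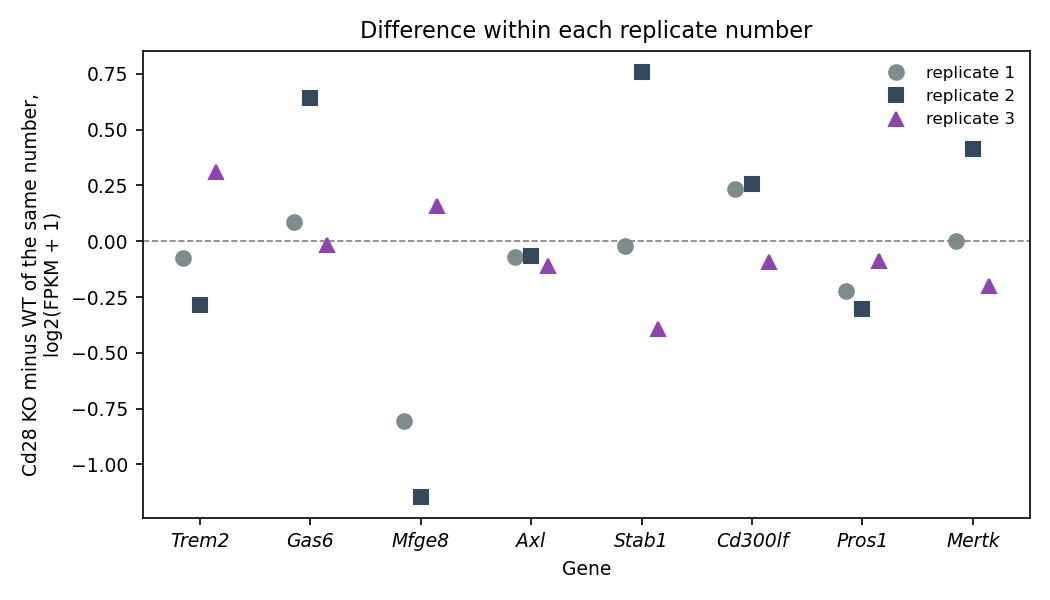
Difference between the Cd28 KO and the WT library of the same number, on the log2(FPKM + 1) scale (vertical axis), for each tested gene, by replicate number. Only the pairing of replicate 3 stood out in the data, so the match of numbers 1 and 2 is uncertain. Mfge8 lies at -0.80 and -1.15 in replicates 1 and 2 and at 0.16 in replicate 3, Gas6 and Stab1 are highest in replicate 2, and Axl lies between -0.11 and -0.06 in all 3.

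The members with the largest spread over the 6 libraries on the log2(FPKM + 1) scale were Mfge8 (SD 0.47), Pros1 (0.42) and Stab1 (0.34), and the genes nearest to each in pattern were sought among all tested genes. Likeness was the root mean square difference after each gene was centred on its own mean over the 6 libraries. Nearest to Mfge8 were Atp6v0d2, a subunit of the proton pump, at 0.131, Slamf8, a receptor of the SLAM family, at 0.133, and Pianp at 0.134. Atp6v0d2 stood at 51.8, 50.9 and 62.5 FPKM in the knockout and at 73.8, 97.2 and 61.1 FPKM in WT. As for Mfge8, WT replicates 1 and 2 were its highest libraries.

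Among the genes nearest to Pros1 were Ptpn7 at 0.059 and Actr1a at 0.059, both lowest in the replicate 3 libraries. Actr1a, a subunit of the dynactin complex, stood at 57.9, 58.6 and 34.6 FPKM in the knockout and at 66.1, 68.8 and 37.0 FPKM in WT. Nearest to Stab1 were Zbed4 at 0.065, Bahcc1 at 0.090 and Rhobtb1 at 0.10. Zbed4 stood at 7.35, 9.05 and 4.08 FPKM in the knockout and at 6.78, 5.61 and 6.04 FPKM in WT, again with both extremes among the knockouts. These likenesses describe 6 libraries that share the split of replicate 3.

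**Figure D4:**
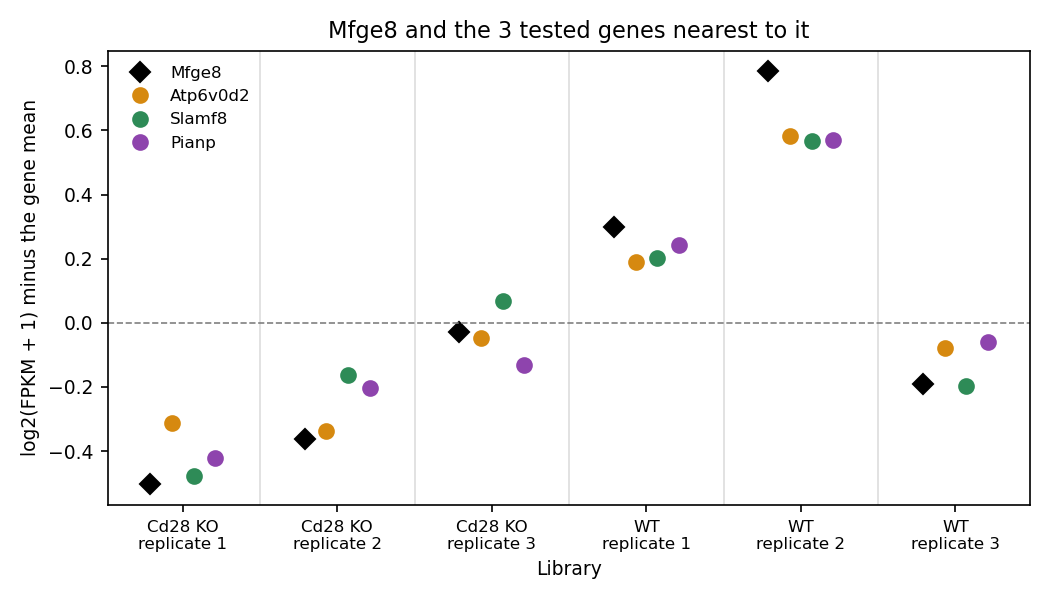
Level of Mfge8 and of its 3 nearest genes in each library, as log2(FPKM + 1) minus the mean of the gene over the 6 libraries (vertical axis). All 4 genes are highest in WT replicate 2 and lie below their means in Cd28 KO replicates 1 and 2.

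Other genes of the efferocytosis pathway were counted from 11 lists with 114 genes, of which 91 were tested. Limma called 0 of the 91 without a block and 0 with it, beside 0.0197% and 0.177% of all tested genes, and 0 of 91 had an unadjusted p below 0.05 without a block. The median log2 difference was 0.01, with 46 genes positive and 45 negative. The groups did not overlap for 4.40% of these genes, against 6.71% of all tested genes. They were Itgb5, Vkorc1l1 and Ifnar1, which had lower knockout values, and Becn1, an autophagy gene with higher ones at 51.4 ± 2.10 against 44.6 ± 1.78 FPKM, and were named after their values were seen.

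Receptors and bridges outside the 10 genes gave the following values. Of 13 other phosphatidylserine receptors 7 were tested, 1 with a positive and 6 with a negative difference, and the median was -0.15. Cd36, the fatty acid and thrombospondin receptor, stood at 129 ± 24.9 FPKM in the knockout and 152 ± 21.1 in WT (mean ± SD, n = 3 each), with a log2 difference of -0.24. Lrp1, a receptor for calreticulin on dying cells, stood at 90.2 ± 20.8 against 110 ± 2.82 FPKM, a log2 difference of -0.31. Itgav, Itgb3 and Itgb5, the integrin chains that Mfge8 engages, had log2 differences of -0.05, 0.06 and -0.16.

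Of 11 other Cd300 genes 9 were tested, 6 of them positive, with a median log2 difference of 0.03. Cd300c2 stood at 237 ± 36.8 against 233 ± 2.48 FPKM and Cd300ld5 at 136 ± 30.7 against 154 ± 59.0, so that both exceeded Cd300lf in all libraries. Cd300ld4 was the 1 of 91 tested pathway genes called in replicates 1 and 2 alone, a fit that called 0.698% of all tested genes, and was named after its values were seen. It stood at 1.44, 2.06 and 1.30 FPKM in the knockout and was listed at 0.19, 0 and 4.24 FPKM in WT, so its highest value was WT replicate 3. It belongs to a set of similar copies and its value is uncertain.

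Of 13 other bridging molecules and opsonins 9 were tested, 3 positive and 6 negative, with a median log2 difference of -0.05. Lgals3, a lectin that can act as an opsonin, stood at 4225 ± 551 FPKM in the knockout and 4488 ± 301 in WT (mean ± SD, n = 3 each). C1qb, a chain of complement C1q, stood at 2212 ± 171 against 2134 ± 346 FPKM. Thbs1, which bridges apoptotic cells to Cd36, was at 1.38 to 2.81 FPKM in replicates 1 and 2 of both genotypes and at 67.8 and 116 FPKM in replicate 3, and was named for this after its values were seen. Vkorc1 and Vkorc1l1, which recycle the vitamin K used to carboxylate Gas6 and protein S, had log2 differences of 0.01 and -0.28, the latter with no overlap between groups.

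Signalling, shedding and engulfment genes gave these values. Tyrobp, the adaptor of Trem2, stood at 2025 ± 281 FPKM in the knockout and 1827 ± 145 in WT (mean ± SD, n = 3 each), and Syk, the kinase it recruits, at 63.1 ± 6.19 against 67.7 ± 12.3, in a list of 6 tested genes with a median log2 difference of 0.08. The 15 tested genes of the engulfment machinery had log2 differences of -0.19 to 0.04 with a median of -0.01, and Cdc42 and Rhog, GTPases that shape the phagocytic cup, had 0.01 and 0.01. The 3 tested genes for the shedding of Mertk, Axl and Trem2 ranged from -0.05 to 0.03, with Adam17 at 52.8 ± 3.33 against 54.5 ± 2.70 FPKM and Adam10 at 26.6 ± 1.53 against 27.8 ± 5.75. Of TAM targets and partners 4 were tested, with a median of 0.15, and Ifnar1 stood at 18.1 ± 0.331 against 21.3 ± 1.61 FPKM, without overlap.

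The remaining lists gave medians between -0.03 and 0.05. Among find-me receptors and don't-eat-me genes 10 were tested, with Sirpa, the receptor for Cd47, at 680 ± 109 against 722 ± 99.8 FPKM and Pirb at 215 ± 27.3 against 213 ± 6.26. Among 15 genes of corpse processing, Cyba, a subunit of the phagocyte oxidase, stood at 924 ± 119 against 882 ± 153 FPKM and Rab7, a GTPase of late endosomes, at 334 ± 15.8 against 348 ± 10.4. Of 10 transcriptional regulators, Maf stood at 73.3 ± 18.2 against 63.5 ± 11.7 FPKM.

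**Figure D5:**
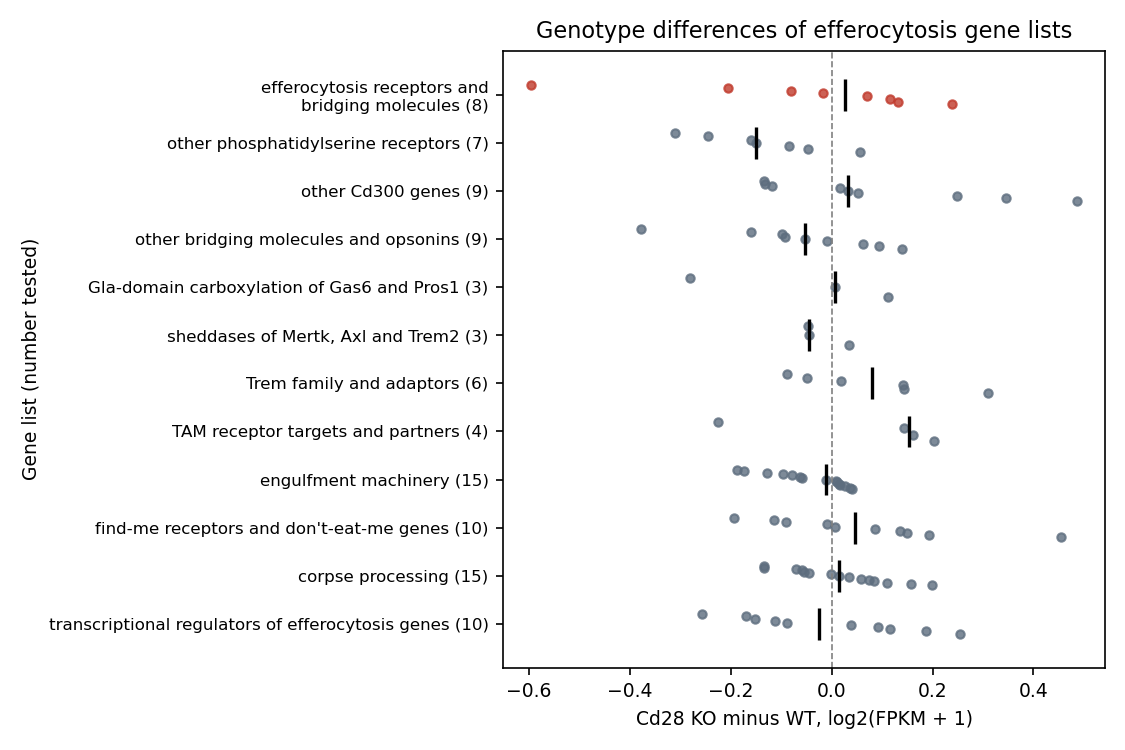
Genotype difference, Cd28 KO minus WT on the log2(FPKM + 1) scale (horizontal axis), of each tested gene (points) in the 10-gene set (red) and in 11 pathway lists (grey), with list medians as black bars. Mfge8 at -0.60 is the lowest point of all lists, and the list medians lie between -0.15 and 0.15.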

How the data were processed

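Macrophage RNA of 3 Cd28 KO and 3 WT samples was sequenced, and the samples were grouped by their titles. The authors deposited FPKM, 1 value per Entrez gene and library, and per the submitters' processing notes used Bowtie and RSEM with GRCm38. RSEM divides reads between similar genes by estimation, so values of close copies are uncertain. Genes absent from a file were set to 0. Symbols and coordinates came from RefSeq GRCm38.p6, which matched 14551 of 14574 identifiers, and promoter sequences from the same source matched all 10 members.

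The 10172 genes whose mean reached 1 FPKM were fitted with limma 3.58.1 in R 4.3.3 on log2(FPKM + 1), with empirical Bayes trend and no block, and p-values were adjusted over all of them (Benjamini-Hochberg, two-sided). Fold differences on this scale understate changes of low genes. The fit was checked on simulated data. Python 3.11.15, pandas 2.3.3, NumPy 2.4.6 and Matplotlib 3.10.9 were used otherwise.

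Deviations from the group means correlated across genes at 0.752, 0.505 and 0.783 between libraries of the same number, which was taken as pairing, on the data alone. Replicates 1 and 2 also correlated across numbers (0.535 and 0.663), so only the pairing of replicate 3 stands out. No pair of libraries shared more than 0.46% of values of at least 1 FPKM.

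Members, lists and alternatives were chosen with earlier results of these data known. Named genes were all 10 members, genes of each list called in either fit or else its 2 most abundant, and the nearest genes of the 3 most variable members. Others were added after their values were seen, and some genes this rule names are not reported here. Alternatives were the replicate block, a term for replicate 3, replicates 1 and 2 alone, each library left out, no filter, a minimum of 5 FPKM, a pseudocount of 0.1, a TPM scale and quantile normalization. The interaction with replicate 3 and the block on the TPM scale were added after the data were seen.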

Additional observations from a re-analysis of the deposited data

How the results depend on the processing

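The count of 0 tested members called by limma held in all alternatives but 1: replicates 1 and 2 alone called 1, Mfge8, and likewise 1 pathway gene, Cd300ld4. Over all genes, limma called 2 without a block, 18 with the replicate block, 28 with the term for replicate 3, 71 in replicates 1 and 2 alone, 5 without a filter and 20 with the block on the TPM scale. The replicate block changed no call of a member or pathway gene. Mfge8, Gas6 and Axl kept their direction in 15 of 15 alternatives, with log2 differences of -0.97 to -0.35, 0.11 to 0.36 and -0.14 to -0.04. In this balanced design the replicate block, the term for replicate 3 and the changed filters cannot move these differences, so their directions there were fixed in advance. No alternative held replicate 3 alone, where the log2 difference was 0.16 for Mfge8, -0.017 for Gas6 and -0.11 for Axl. Among the alternatives run, directions turned only when 1 library was left out, where the log2 differences ranged from -0.051 to 0.255 for Mertk, -0.488 to 0.018 for Pros1, -0.108 to 0.375 for Stab1, -0.151 to 0.060 for Trem2 and -0.054 to 0.378 for Cd300lf. The reversed values were those without Cd28 KO replicate 2 for Mertk (-0.051), Stab1 (-0.108) and Trem2 (0.042), without Cd28 KO replicate 3 for Pros1 (0.018) and Cd300lf (-0.003), without WT replicate 1 for Trem2 (0.043), and without WT replicate 2 for Trem2 (0.060) and Cd300lf (-0.054), and the cause was not tested. None of these reversed values had a limma adjusted p below 0.05. The difference of Cd28 was -19.1 to -8.56 FPKM when 1 library was left out. The TPM scale moved the median of all genes to -0.06 on the log2 scale. FPKM carries no read numbers, so the counting error behind the low values of Tyro3 and Timd4 is unknown.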
